A study of Homo sapiens with 5 samples.

Results

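Solute carriers are the membrane proteins that move amino acids, sugars, metals, vitamins, nucleotides and ions across the cell surface and the membranes of organelles. They were examined here in an array study of the epithelial to mesenchymal transition (EMT), the change of cells in an epithelial sheet to a mesenchymal form. Members were genes whose symbol begins with SLC followed by a number, each represented by its brightest probe set. The cystine transporter SLC7A11, the iron exporter SLC40A1, antisense transcripts and pseudogenes were left out. This gave 174 of the 14916 named genes, of which 172 were protein-coding. The other 2 members, SLC2A1-DT and SLC12A2-DT, are divergent noncoding transcripts, and SLC4A1AP encodes an adaptor protein despite its symbol.

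The 5 samples were lines of HMLE, human mammary epithelial cells made immortal with telomerase and a viral large T antigen. The control line was labelled LACZ, after a bacterial reporter gene, and the other 4 were labelled as overexpressing a transcription factor that is known to drive EMT, FOXQ1, SNAI1, TWIST1 or ZEB2. No line received a further treatment, and the labels do not say whether a line is a clone or a pool. Each line was measured on 1 Affymetrix array, so there was no replicate error, no test was possible, and each difference below is a comparison of 2 arrays. The question of the series was what the EMT models share and where they differ.

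Levels are given as deposited and taken to be log2 values, and differences are the named array minus LACZ unless another array is given. A gene was called when 2 arrays differed by at least 1 on that scale (2-fold, if the base is 2) and the brighter value reached a floor of 4.72, the median of all gene mean levels. Probe sets were not compared in level with each other. The values covered chromosomes 1 to 8 and part of 9, so carriers encoded elsewhere were not analysed here. Levels of FOXQ1, TWIST1 and ZEB2 were highest on the arrays named for them, at 6.23, 9.96 and 7.39, and SNAI1 was not analysed here. FOXQ1 stayed at 3.56 to 3.61 on the other arrays, whereas TWIST1 and ZEB2 were also above their LACZ levels of 5.55 and 3.57 on every factor array. All 7 measured members of a mammary epithelial list of 10 were above the floor on LACZ and lower on FOXQ1, SNAI1 and TWIST1, and 6 were lower on ZEB2. EPCAM, an epithelial adhesion molecule, stood at 14.85 on LACZ and at no more than 3.18 in the factor lines. A separate list of 4 luminal mammary markers had 3 measured, and only MUC1 reached the floor. MUC1 went the other way: it was at 6.77 on LACZ and higher on FOXQ1, SNAI1 and TWIST1, by 3.25, 1.57 and 2.55. Of 3 measured fibroblast markers COL1A2, a collagen gene, was higher on all 4 factor arrays, at 11.84 to 14.6 against 7.32 on LACZ. The other 2 did not follow it throughout. FAP was below LACZ on FOXQ1, SNAI1 and TWIST1 and was not called on any array. PDGFRA was called only on TWIST1, at 8.58 against 4.54 on LACZ, and was at 4.37 on FOXQ1. Of 7 measured leukocyte and endothelial markers only PTPRC reached the floor, at 4.9 to 5.03. The part of these marker shifts in the results on carriers was not tested.

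Most solute carriers are secondary transporters or exchangers, which couple a substrate to a gradient of sodium, protons or another solute, or let it pass down its own gradient. In mammary epithelium they supply amino acids and glucose for growth, load zinc and calcium, and regulate cell volume and pH. The mitochondrial family links the matrix to the cytosol, and the nucleotide sugar family feeds glycosylation in the endoplasmic reticulum and Golgi. The carriers measured here belonged to 45 families.

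Of the 174 members, 99 reached the floor on at least 1 array, 89 reached it on all 5, and 75 stayed below it everywhere. The 57 members called on at least 1 factor array came to 32.8%, beside 23.3% of all named genes and 35.1% of protein-coding genes. Fewer members than protein-coding genes reached the floor, 56.9% against 69.4%. Among genes with a mean at or above the floor, the called share was 56.2% of 96 members and 51.3% of 4941 protein-coding genes. Carriers as a group were therefore called about as often as protein-coding genes in general, and the account below is of individual members. Of the 57, 31 were called only lower, 24 only higher, and 2 in both directions. Fewer cells of a type and less RNA per cell cannot be told apart in these bulk samples.

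On the FOXQ1 array 10 members were higher and 21 lower, or 5.75% and 12.1%, beside 6.54% and 6.98% of all genes and 11.1% and 10.2% of protein-coding genes. On SNAI1 5 were higher and 24 lower, or 2.87% and 13.8%, beside 4.26% and 8.02% of all genes and 5.98% and 13.2% of protein-coding genes. On TWIST1 17 were higher and 11 lower, or 9.77% and 6.32%, beside 7.27% and 4.22%, and 12.5% and 5.39% of protein-coding genes. On ZEB2 15 were higher and 9 lower, or 8.62% and 5.17%, beside 6.4% and 4.32%, and 10.3% and 6.3% of protein-coding genes. Counted over every gene, the share of higher carriers was below the protein-coding share on all 4 arrays. Among genes with a mean at or above the floor, higher members came to 10.4% with FOXQ1, 5.21% with SNAI1, 17.7% with TWIST1 and 15.6% with ZEB2, against 16.8%, 9.17%, 19.1% and 15.8% of protein-coding genes. Lower members were 19.8%, 22.9%, 9.38% and 8.33% in the same order, against 14.6%, 18.9%, 7% and 8.56%. The shortfall of higher members was thus seen on FOXQ1 and SNAI1 by both counts and was small on TWIST1 and ZEB2 by the second. The 4 comparisons share the LACZ array. The median difference over all 174 members was 0 on FOXQ1, TWIST1 and ZEB2 and -0.16 on SNAI1. In that order it was 0, 0, 0 and -0.09 over all named genes, and 0.01, 0.08, 0.05 and -0.2 over protein-coding genes. With a mean at or above the floor, members had medians of 0.03, 0.13, 0 and -0.18, and protein-coding genes 0.06, 0.22, 0.13 and -0.27. No carrier median thus lay further from 0 than the matching protein-coding median.

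**Figure D1:**
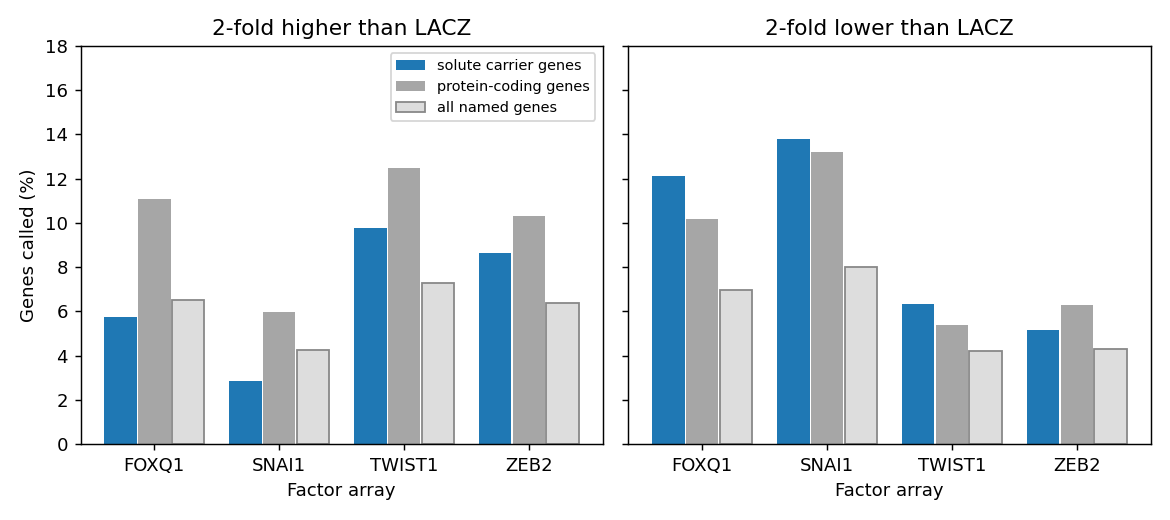
Percent of genes called 2-fold higher (left) or lower (right) than LACZ on each factor array, for the 174 solute carrier genes, the 7794 protein-coding genes and all 14916 named genes, with 1 array per line and no error bars. The carriers' bars for higher genes lie below the protein-coding bars on every array (5.75% against 11.1% on FOXQ1), and those for lower genes lie near them (13.8% against 13.2% on SNAI1).

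In 6 members the LACZ level lay at least 2-fold above each of the 4 factor arrays, 3.45% of the members, beside 2.29% of all named genes and 3.61% of protein-coding genes. They were SLC44A3, SLC2A9, SLC2A12, SLC25A33, SLC39A4 and SLC25A27, which move different substrates. SLC7A2 alone lay on the opposite side of LACZ, 0.575% of the members beside 2.17% of all genes and 3.77% of protein-coding genes. The members just short of these groups were SLC25A32, whose smallest difference was -0.97, SLC39A8 at -0.91 and SLC1A3 at -0.89, and, on the higher side, SLC17A5 at 0.97 and SLC8A1 at 0.9. For SLC39A8 this depends on the probe set used, since its second probe set differed by -3.39 to -4.85 on the 4 arrays.

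SLC44A3 (chromosome 1, 94820357 to 94895247, GRCh38.p14), a member of the choline transporter-like family, was at 7.68 on LACZ, 4.25 with FOXQ1, 3.86 with SNAI1, 4.24 with TWIST1 and 3.88 with ZEB2. Its differences were -3.43, -3.82, -3.44 and -3.8, and only LACZ was above the floor. The 4 factor arrays lay within 0.39 of each other. SLC2A9 (chromosome 4, 9771025 to 10040270), a urate transporter of the glucose transporter family, was at 9.46, 6.51, 5.76, 5.97 and 6.06 on LACZ, FOXQ1, SNAI1, TWIST1 and ZEB2. It stayed above the floor on all 5 arrays and differed by -2.95 to -3.7. SLC2A12 (chromosome 6, 133987581 to 134052624), a glucose transporter of the same family, was at 6.46, 4.16, 3.82, 4.74 and 4.25 in the same order. Only LACZ and TWIST1 reached the floor, and the differences ran from -1.72 on TWIST1 to -2.64 on SNAI1.

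SLC25A33 (chromosome 1, 9539465 to 9585173), a mitochondrial carrier of pyrimidine nucleotides, was at 8.93 on LACZ and at 6.46, 7.2, 7.31 and 7.1 on FOXQ1, SNAI1, TWIST1 and ZEB2. SLC39A4 (chromosome 8, 144412414 to 144416844), a zinc importer, was at 11.56 on LACZ and at 9.95, 9.93, 10.34 and 10.01. SLC25A27 (chromosome 6, 46652975 to 46678190), a mitochondrial uncoupling protein found mainly in brain, was at 6.43 on LACZ and at 5.36, 5, 5.25 and 5.25. These 3 stayed above the floor on all 5 arrays. FOXQ1 was the lowest array for SLC25A33, with a difference of -2.47, while the 4 factor arrays lay within 0.41 of each other for SLC39A4 and within 0.36 for SLC25A27.

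SLC7A2 (chromosome 8, 17494069 to 17570566), a transporter of arginine, lysine and ornithine, was at 6.14 on LACZ, 7.97 with FOXQ1, 8.64 with SNAI1, 8.68 with TWIST1 and 9.93 with ZEB2. No array overlapped LACZ: the differences were 1.83, 2.5, 2.54 and 3.79, and ZEB2 also stood 1.25 above TWIST1, the next array.

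**Figure D2:**
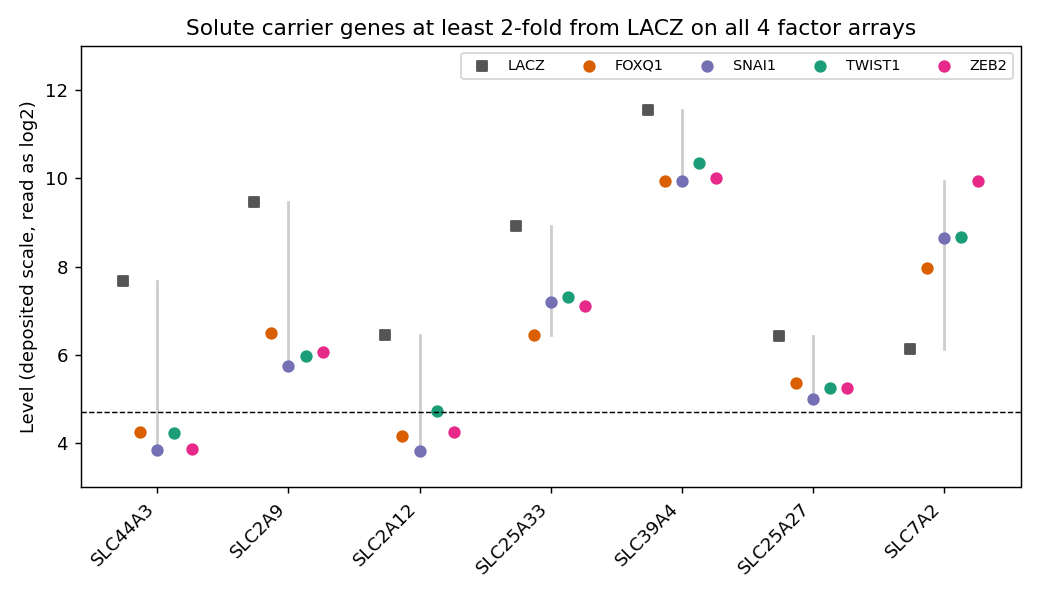
Deposited levels (log2 units) of the 7 solute carrier genes at least 2-fold from LACZ on all 4 factor arrays, with a square for LACZ, circles for the factor arrays, a grey line over the range, and a dashed line at the floor of 4.72. Levels are to be compared within a gene: the LACZ square lies above the circles for the first 6 genes and below them for SLC7A2 (6.14 against 7.97 to 9.93).

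The promoters of the lower genes are shown because SNAI1, TWIST1 and ZEB2 are known to bind E-box sequences and repress epithelial genes through them. The RefSeq table of GRCh38.p14 gave windows from 250 bases before to 50 after a transcript start for 145 of the 174 members. It held 7 windows of 5 of the 6 genes that were lower on all 4 arrays. The E-box, searched as CACCTG and, for the opposite strand, as CAGGTG, was found in 4 of these 7 windows and in 3 of the 5 genes. It was found in 51 of 191 windows of all members (26.7%) and in 20.6% of all 35116 windows of the table. Counted by gene, it was found in 31.7% of members with a window and in 24.1% of all genes of the table. The forkhead core, searched as TGTTTA and, for the opposite strand, as TAAACA, was in 24 of the members' windows (12.6%) and in 12.3% of all windows. The first 250 bases are given for SLC2A9 (chr4:10040271-10040520, minus strand) and SLC25A27 (chr6:46652725-46652974, plus strand), 5′ to 3′, with the E-box in capitals. For SLC44A3, 30 bases are given around a start inside the gene (chr1:94824478-94824507, plus strand), where the E-box shares 2 bases with a match of the forkhead core.
SLC2A9: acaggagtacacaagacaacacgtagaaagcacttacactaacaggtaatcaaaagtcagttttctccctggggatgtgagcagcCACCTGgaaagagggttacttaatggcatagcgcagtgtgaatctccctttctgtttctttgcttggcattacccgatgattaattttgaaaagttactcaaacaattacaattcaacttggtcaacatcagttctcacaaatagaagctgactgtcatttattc
SLC25A27: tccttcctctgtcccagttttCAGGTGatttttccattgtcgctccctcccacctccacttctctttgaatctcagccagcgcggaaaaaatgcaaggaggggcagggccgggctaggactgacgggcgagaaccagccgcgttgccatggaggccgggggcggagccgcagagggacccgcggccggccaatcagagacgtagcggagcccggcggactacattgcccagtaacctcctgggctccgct
SLC44A3: ccccgtttttgcCAGGTGtttatcatgggc
Relative to the start, the E-box begins at -165 in SLC2A9, at -229 in SLC25A27 and at -3 in SLC44A3. SLC2A9 has a second window without either motif, and SLC44A3 a second one with the E-box after its start. No match of either motif was found in the windows of SLC2A12 and SLC25A33. Among members called only lower, on at least 1 factor array, 11 of 38 windows held the E-box (28.9%), beside 33 of 126 windows (26.2%) of members called on none. A match is a stretch of letters and not a measured binding site.

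The carriers were next taken by substrate. The counts called in each class below are to be read beside 23.3% of all named genes and 35.1% of protein-coding genes. Of protein-coding genes with a mean at or above the floor, 51.3% were called on at least 1 array. Among 14 measured amino acid transporters, 5 reached the floor and 4 were called. SLC1A3 (chromosome 5, 36596588 to 36688334), a transporter of glutamate and aspartate, was at 10.33 on LACZ, 6.69 with FOXQ1, 5.88 with SNAI1, 7.95 with TWIST1 and 9.44 with ZEB2. Its differences of -3.64, -4.45 and -2.38 were calls, and -0.89 on ZEB2 was not, so ZEB2 lay nearer to LACZ than to the other factor arrays. SLC38A9, a lysosomal arginine sensor, differed by -1.09 on FOXQ1 and -1.63 on SNAI1 with the probe set used. Its other 2 probe sets differed by 0.12 to 0.29 on these arrays, so they did not move alike. SLC1A4, a transporter of alanine, serine and cysteine, was lower on FOXQ1 at -1, a call lost with quantile (-0.96) and loess (-0.95) scaling. SLC36A1, a proton-coupled lysosomal transporter of small amino acids, was not called on any array.

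Of 12 measured sugar transporters, 7 reached the floor and 4 were called. Beside the lower SLC2A9 and SLC2A12, SLC2A1, the main glucose transporter of proliferating cells, was at 6.31 on LACZ, 7.05 with FOXQ1, 6.72 with SNAI1, 7.78 with TWIST1 and 6.51 with ZEB2. Only TWIST1 was 2-fold above LACZ, by 1.47. SLC50A1, a sugar transporter of the SWEET family, was at 9.84 on LACZ and at 11.47, 10.5, 11.36 and 10.73 in the usual order of the factor arrays, with calls on FOXQ1 and TWIST1. Members of 1 family thus lay on both sides of LACZ.

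Among 20 measured metal transporters 14 reached the floor and 3 were called, where 35.1% of protein-coding genes were. All 3 were zinc importers of the SLC39 family. None of the 9 measured members of the SLC30 family, which move zinc out of the cytosol, was called, and 6 reached the floor. SLC39A14 (chromosome 8, 22367278 to 22434129), which also carries manganese and iron, was at 4.25 on LACZ and 4.58 on FOXQ1, and at 5.62, 6.51 and 6.3 on SNAI1, TWIST1 and ZEB2. The LACZ and FOXQ1 values were below the floor and the other 3 above it. SLC39A8 (chromosome 4, 102251041 to 102345482), an importer of zinc and manganese, was at 10.56 on LACZ and at 9.65, 7.88, 9.17 and 9.14. Its second probe set was at 11.42 on LACZ and at 6.57, 6.84, 7.67 and 8.03, and differed by -4.85, -4.58, -3.75 and -3.39. Both probe sets placed every factor array below LACZ but they disagreed on the size, and on whether FOXQ1 or SNAI1 was lowest. SLC39A7, which releases zinc from the endoplasmic reticulum, differed by 0.99 on FOXQ1, just short of a call. SLC41A1 and SLC41A3, magnesium transporters, ranged over only 0.49 and 0.56 across the 5 arrays.

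**Figure D3:**
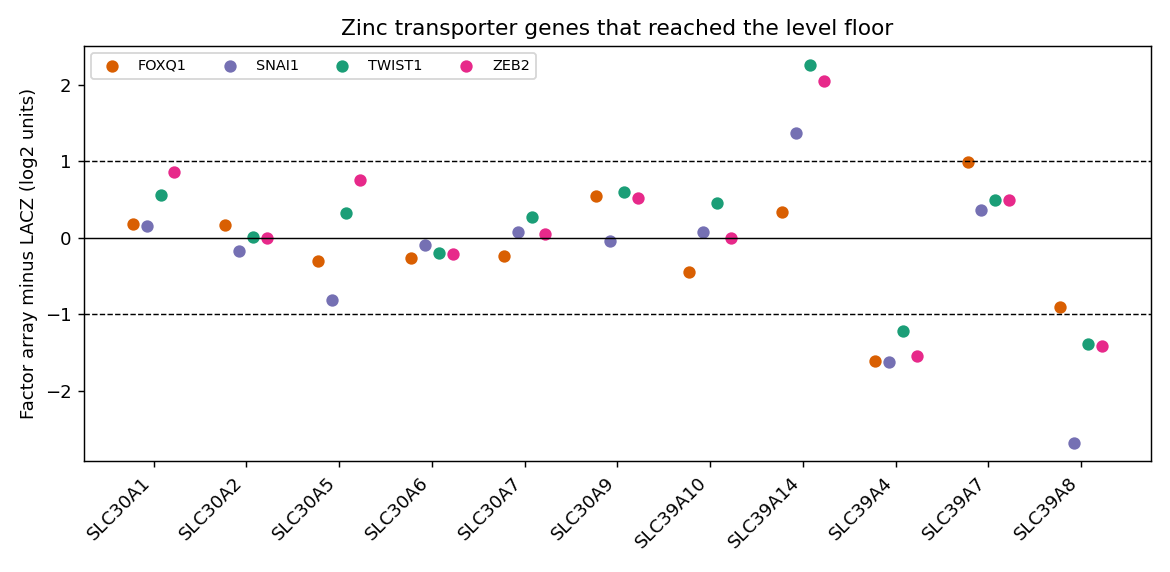
Difference from LACZ (log2 units) on each factor array for the 11 SLC30 and SLC39 zinc transporter genes that reached the floor, with 1 point per array and dashed lines at 1 and -1. No SLC30 gene passes a dashed line, SLC39A4 and SLC39A8 lie below 0 on every array, and SLC39A14 lies above 1 on SNAI1, TWIST1 and ZEB2 (1.37, 2.26 and 2.05).

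The mitochondrial carriers formed the largest family, with 19 measured, 16 reaching the floor and 12 called, beside 35.1% of all protein-coding genes and 51.3% of those with a mean at or above the floor. On SNAI1 7 were lower and 1 higher, and on FOXQ1 4 were lower and none higher. On TWIST1 3 were lower and 4 higher, and on ZEB2 3 were lower and 2 higher. Of protein-coding genes with a mean at or above the floor, 18.9% were lower and 9.17% higher on SNAI1. These shares were 14.6% and 16.8% on FOXQ1, 7% and 19.1% on TWIST1, and 8.56% and 15.8% on ZEB2. Over all protein-coding genes they were, in the same order, 13.2% and 5.98%, 10.2% and 11.1%, 5.39% and 12.5%, and 6.3% and 10.3%. SLC25A32, which carries folate and flavin adenine dinucleotide into the matrix, was at 13.9 on LACZ and at 11.77, 12.49, 12.71 and 12.93 on FOXQ1, SNAI1, TWIST1 and ZEB2. SLC25A13, an exchanger of aspartate and glutamate, differed by -1.64 on FOXQ1 and -1.54 on SNAI1, while SLC25A12, with the same role, was 1.14 higher on TWIST1. SLC25A4 (chromosome 4, 185143266 to 185150382), the adenine nucleotide translocator of muscle and heart, was at 11.43 on LACZ, 10.52 with FOXQ1, 8.25 with SNAI1, 11.17 with TWIST1 and 11.43 with ZEB2. The SNAI1 array alone was called, at -3.18. A second probe set stayed below the floor, at 4.04 to 4.59, and the median of both gave -1.54. SLC25A37 (chromosome 8, 23528956 to 23575463), which imports iron for heme synthesis, was at 7.63 on LACZ, 8.38 with FOXQ1, 9.37 with SNAI1, 9.74 with TWIST1 and 10.47 with ZEB2. Its differences of 1.74, 2.11 and 2.84 on the last 3 arrays were calls. SLC25A38, a glycine carrier of the same pathway, was 1.29 higher on TWIST1 and 0.43 to 0.55 above LACZ elsewhere. SLC25A40 differed by -1.4 on SNAI1 and -1.12 on ZEB2, SLC25A46, an outer membrane protein of mitochondrial dynamics, by 1.03 on TWIST1, and SLC25A20, the carnitine and acylcarnitine carrier, by 1.15 on ZEB2.

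**Figure D4:**
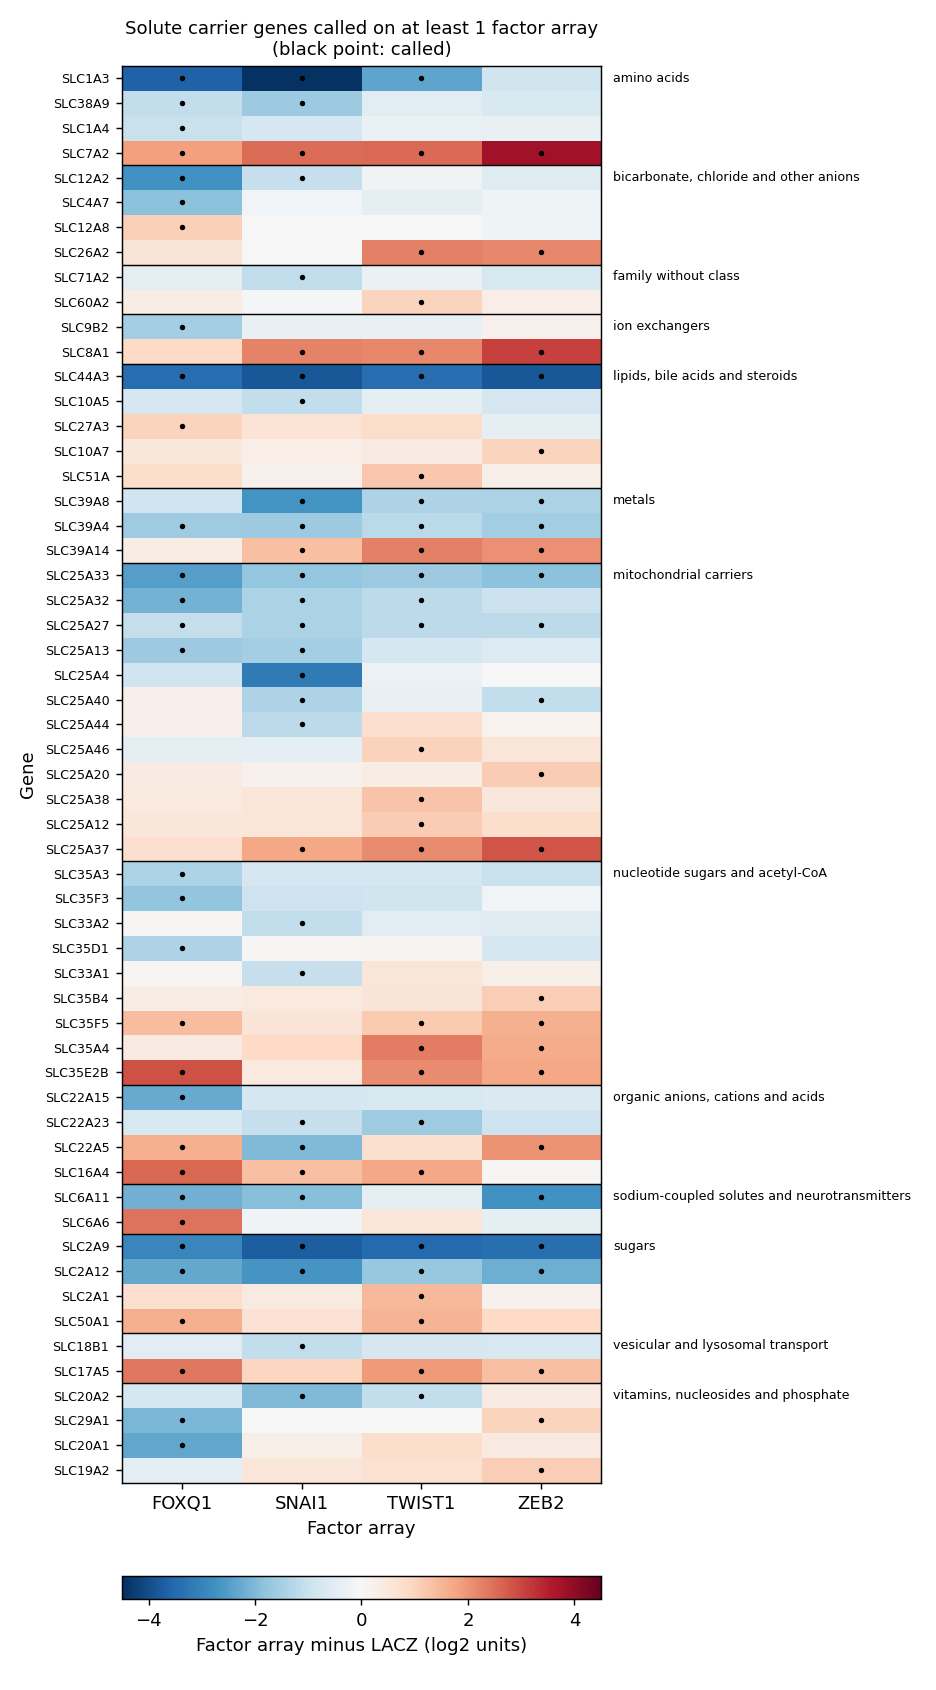
Difference from LACZ (colour, log2 units, red higher and blue lower) of the 57 solute carrier genes called on at least 1 factor array, grouped by substrate class, with a black point where the gene was called. The columns are the 4 factor arrays; SLC44A3 and SLC2A9 are blue in all 4 (-2.95 to -3.82), SLC7A2 is red in all 4 (1.83 to 3.79), and SLC22A5 is blue only on SNAI1 (-2).

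Of 17 measured carriers of nucleotide sugars, acetyl-CoA and relatives, 14 reached the floor and 9 were called. SLC35A4 was at 6.46 on LACZ, 6.86 with FOXQ1, 7.36 with SNAI1, 8.76 with TWIST1 and 8.12 with ZEB2, with calls on TWIST1 and ZEB2. SLC35F5 was at 10.35 on LACZ and at 11.73, 10.94, 11.53 and 11.94, with calls on all arrays but SNAI1. SLC35E2B was at 4.82 on LACZ and at 7.7, 5.25, 6.93 and 6.55, again with calls on all but SNAI1. SLC35E2B has a near-identical neighbour, the pseudogene SLC35E2A, which was at 5.45, 8.31, 5.8, 7.37 and 6.95 on LACZ, FOXQ1, SNAI1, TWIST1 and ZEB2, so the signals of both are uncertain. SLC35A3, a Golgi carrier of UDP-N-acetylglucosamine, and SLC35D1, of the endoplasmic reticulum, were lower on FOXQ1 by -1.41 and -1.4. SLC33A1, the acetyl-CoA carrier of the endoplasmic reticulum, was called only on SNAI1, at -1.05. Of the rest, SLC33A2 differed by -1.09 on SNAI1, SLC35B4 by 1.1 on ZEB2 and SLC35F3 by -1.76 on FOXQ1.

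Among 18 measured transporters of bicarbonate, chloride and other anions, 6 reached the floor and 4 were called. SLC12A2 (chromosome 5, 128083766 to 128189677), the sodium, potassium and chloride cotransporter that sets cell volume, was at 11.69 on LACZ, 8.98 with FOXQ1, 10.64 with SNAI1, 11.53 with TWIST1 and 11.13 with ZEB2. SLC4A7, a sodium bicarbonate cotransporter, was at 11.2, 9.35, 11.07, 10.75 and 11.01 in the same order. In both genes FOXQ1 was the low array, and SLC12A2 was also called on SNAI1, at -1.05, a call lost with quantile (-0.91), median (-0.96) and loess (-0.96) scaling. SLC26A2, the sulfate transporter needed for proteoglycan sulfation, was at 11.68 on LACZ, 12.26 with FOXQ1, 11.7 with SNAI1, 13.95 with TWIST1 and 13.83 with ZEB2. TWIST1 and ZEB2 lay 2.27 and 2.15 above LACZ, and SNAI1 lay 0.02 from it. Of 9 measured ion exchangers 2 reached the floor. SLC8A1 (chromosome 2, 40097270 to 40512435), the sodium and calcium exchanger, was at 5.84 on LACZ and at 6.74, 8.07, 8.01 and 8.92, with calls on SNAI1, TWIST1 and ZEB2. SLC9B2, a sodium and proton exchanger, was at 9.37 on LACZ and 7.85 on FOXQ1, and at 9.03 to 9.55 on the other 3.

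Of 15 measured transporters of organic ions and acids, 8 reached the floor and 4 were called. SLC22A5 (chromosome 5, 132369710 to 132395612), the carnitine transporter, was at 7.43 on LACZ, 9.06 with FOXQ1, 5.43 with SNAI1, 8.16 with TWIST1 and 9.46 with ZEB2. It was higher on FOXQ1 and ZEB2, by 1.63 and 2.03, and lower on SNAI1, by 2 units. Its neighbour SLC22A4, a transporter of ergothioneine, was called on no array, with differences of 0 to 0.42. SLC16A4, of the monocarboxylate transporter family, was at 7.91 on LACZ and at 10.51, 9.26, 9.64 and 7.98 on FOXQ1, SNAI1, TWIST1 and ZEB2, so that ZEB2 alone stayed at the LACZ level. SLC22A15 was at 7.71 on LACZ and 5.44 on FOXQ1, and at 6.91 to 7.07 on the other 3. SLC22A23 was at 5.52 on LACZ and 4.81, 4.5, 3.91 and 4.58 on the factor arrays, with calls on SNAI1 and TWIST1.

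Of 12 measured sodium-coupled transporters of neurotransmitters and related solutes, 4 reached the floor. SLC6A6 (chromosome 3, 14402576 to 14489349), the taurine transporter, was at 8.94 on LACZ, 11.39 with FOXQ1, 8.79 with SNAI1, 9.5 with TWIST1 and 8.53 with ZEB2. FOXQ1 lay 2.45 above LACZ, and no other array was called. SLC6A11, a transporter of the inhibitory transmitter GABA, was at 7.15 on LACZ, 4.99 with FOXQ1, 5.23 with SNAI1, 6.73 with TWIST1 and 4.42 with ZEB2, with calls on all arrays but TWIST1. SLC5A6, the multivitamin transporter, differed by -0.93 on FOXQ1 and was not called.

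Among 11 measured carriers of vitamins, nucleosides and phosphate, 6 reached the floor and 4 were called. SLC20A1 (chromosome 2, 112645939 to 112663825), a phosphate importer, was at 12.84 on LACZ, 10.51 with FOXQ1, 13.12 with SNAI1, 13.63 with TWIST1 and 13.23 with ZEB2. SLC20A2, the other phosphate importer of its family, was at 7.65 on LACZ and at 6.89, 5.66, 6.56 and 8.03. The low array was FOXQ1 for SLC20A1 and SNAI1 for SLC20A2. SLC29A1 (chromosome 6, 44219615 to 44234142), a nucleoside transporter, was at 11.58 on LACZ, 9.51 with FOXQ1, 11.59 with SNAI1, 11.57 with TWIST1 and 12.59 with ZEB2. It was lower on FOXQ1, at -2.07, and higher on ZEB2, at 1.01, while SNAI1 and TWIST1 lay within 0.01 of LACZ. The ZEB2 call was lost with quantile (0.91) and loess (0.93) scaling. SLC19A2, a thiamine transporter, was called only on ZEB2, at 1.11.

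Of 10 measured carriers of lipids, bile acids and steroids, 6 reached the floor and 5 were called. Beside SLC44A3, SLC27A3, of the fatty acid transport family, was 1.01 higher on FOXQ1, SLC10A7 was 1.01 higher on ZEB2, SLC10A5 was 1.09 units lower on SNAI1, and SLC51A, a subunit of a steroid and bile acid exporter, was 1.23 higher on TWIST1. Each of these 4 calls was on 1 array and at most 1.23 in size. That of SLC51A became 0.62 when its probe sets were combined by their median. That of SLC10A7 was lost with quantile (0.91) and loess (0.95) scaling. Of 8 measured vesicular and lysosomal carriers, 4 reached the floor. SLC17A5, which exports sialic acid from lysosomes, was at 9.32 on LACZ and at 11.69, 10.29, 11.24 and 10.69 with FOXQ1, SNAI1, TWIST1 and ZEB2. All 4 factor arrays lay above LACZ, and only the SNAI1 difference, 0.97, fell short of 2-fold. SLC18B1, a vesicular polyamine transporter, was called only on SNAI1, at -1.1. The 6 members in families without a substrate class included 2 with calls, SLC60A2 at 1 on TWIST1 and SLC71A2 at -1.09 on SNAI1, and the 3 members that are not transporters had none.

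The members were also sorted by whether 1 factor array stood apart, which required a call against LACZ and a difference of at least 2-fold from each other factor array. FOXQ1 stood apart in 8 members, higher in SLC6A6 and SLC12A8 and lower in SLC12A2, SLC20A1, SLC22A15, SLC29A1, SLC4A7 and SLC9B2. These were 1.15% and 3.45% of the members, beside 1.2% and 1.54% of all genes and 2.12% and 2.31% of protein-coding genes. SLC12A8, of the cation and chloride cotransporter family, was at 4.9 on LACZ and 5.96 on FOXQ1 and at 4.69 to 4.91 elsewhere, close to the floor. SNAI1 stood apart upward in no member, beside 0.282% of all genes and 0.167% of protein-coding genes, and downward in SLC22A5, SLC25A4, SLC25A44, SLC33A1 and SLC39A8. The latter were 2.87% of the members beside 1.24% of all genes and 2.25% of protein-coding genes. The second probe set of SLC39A8 was lowest on FOXQ1, at 6.57 against 6.84 on SNAI1, so SNAI1 did not stand apart by it. SLC25A44, a mitochondrial carrier of branched-chain amino acids, was at 5.79 on SNAI1 and at 6.97 to 7.74 on the other 4 arrays. ZEB2 stood apart in SLC7A2 and SLC29A1, both upward, 1.15% beside 0.583% of all genes and 0.898% of protein-coding genes, and downward in none, beside 0.181% and 0.218%. After quantile normalization the ZEB2 difference of SLC29A1 was 0.91, short of a call. TWIST1 stood apart in no member, beside 0.355% of all genes and 0.565% of protein-coding genes upward, and 0.067% and 0.0257% downward.

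**Figure D5:**
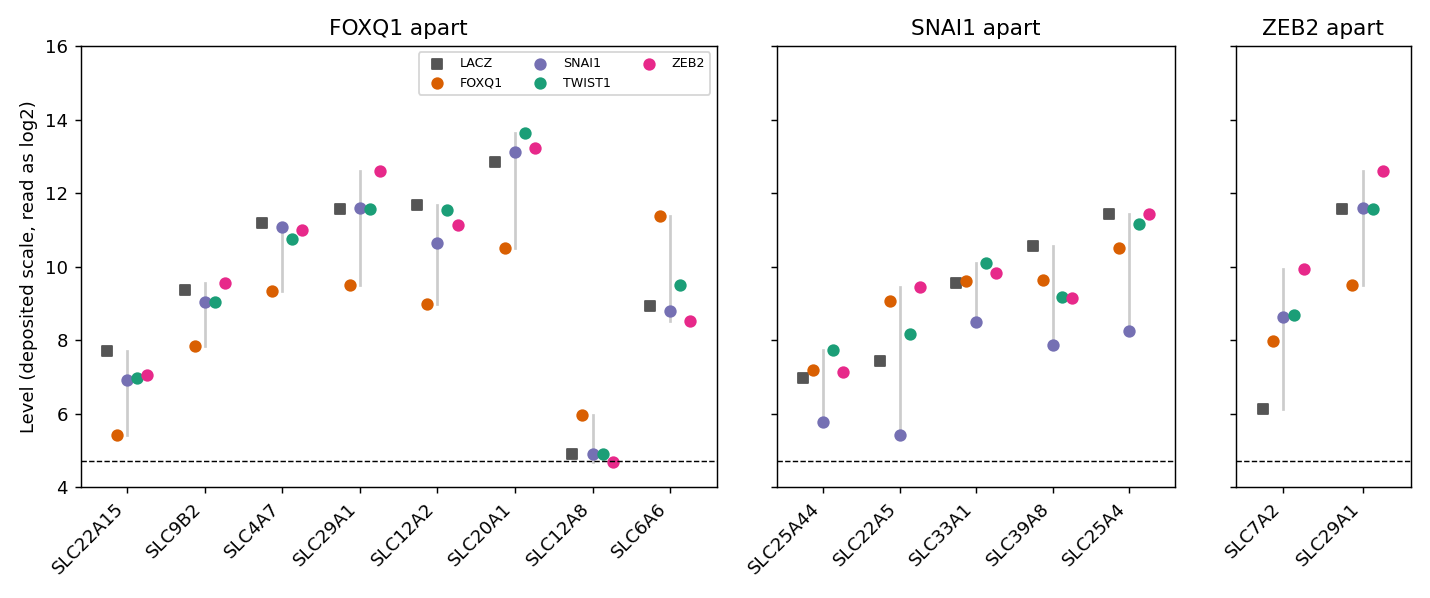
Deposited levels (log2 units) of the solute carrier genes in which 1 factor array stood apart, with a square for LACZ, circles for the factor arrays, a grey line over the range and a dashed line at the floor of 4.72. The FOXQ1 circle is the lowest in 6 genes and the highest in SLC12A8 and SLC6A6 (11.39 against 8.53 to 9.5), and the SNAI1 circle is the lowest in the 5 genes of the middle panel.

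Comparisons between factor arrays do not use LACZ. FOXQ1 and ZEB2 differed 2-fold in 27 members (15.5%, beside 10.5% of all genes and 15.7% of protein-coding genes), and TWIST1 and ZEB2 in 9 (5.17%, beside 4.96% and 6.88%). Of the 27, 20 were higher on ZEB2 and 7 lower (11.5% and 4.02%), beside 6.59% and 3.89% of all genes and 9.55% and 6.18% of protein-coding genes. The other pairs lay between, with 22 for FOXQ1 and SNAI1 (12.6%, beside 11% and 17.1%), 20 for FOXQ1 and TWIST1 (11.5%, beside 7.73% and 12.1%), 19 for SNAI1 and TWIST1 (10.9%, beside 8.38% and 13.2%) and 18 for SNAI1 and ZEB2 (10.3%, beside 7.65% and 12.2%). All 6 shares were below those of protein-coding genes when every gene was counted. Among genes with a mean at or above the floor this did not hold: the share was 27.1% of members and 23.7% of protein-coding genes for FOXQ1 and ZEB2, 20.8% and 17.9% for FOXQ1 and TWIST1, and 19.8% of both for SNAI1 and TWIST1.

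Between TWIST1 and SNAI1 all 19 members were higher on TWIST1, 10.9% beside 7.03% of all genes and 12.6% of protein-coding genes. None was lower, beside 1.35% of all genes and 0.552% of protein-coding genes. Of all genes called in this pair 83.9% were higher on TWIST1, so this lean was not particular to carriers. The median gene was 0.13 higher on TWIST1, and with arrays centred on the median gene 15 members were higher and 0 lower. Between TWIST1 and FOXQ1 18 members were higher on TWIST1 and 2 lower (10.3% and 1.15%), beside 5.4% and 2.33% of all genes and 8.66% and 3.44% of protein-coding genes. The 2 lower were SLC6A6 and SLC12A8. Among the 9 members that separated ZEB2 from TWIST1, SLC1A3, SLC20A2, SLC22A5, SLC29A1 and SLC7A2 were higher on ZEB2, and SLC16A4, SLC27A3, SLC2A1 and SLC6A11 were lower. That split of 5 against 4 became 5 against 6 after quantile or loess normalization.

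Members with steady levels were taken among the 46 that stayed at or above 7.92, the 75th percentile of gene mean levels, on all 5 arrays. The smallest ranges over the arrays were 0.26 for SLC30A6, a zinc transporter of the Golgi, 0.42 for the adaptor gene SLC4A1AP, 0.49 for SLC41A1, 0.51 for SLC30A7, another Golgi zinc transporter, 0.56 for SLC41A3 and 0.57 for SLC66A1, a lysosomal exporter of cationic amino acids. SLC30A6 was at 10.64 on LACZ and at 10.38, 10.55, 10.44 and 10.43 on FOXQ1, SNAI1, TWIST1 and ZEB2. The 75 members below the floor lay between 2.5 and 4.71 and had a median range of 0.5, and no difference among them was called. They included SLC39A1, a widely used zinc importer, at 3.33 to 3.84.

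Other membrane transport genes were examined from a list of solute carrier relatives under other symbols, which also holds some channels. Genes with symbols of the ABC family were taken as well. Most of them encode transporters that use ATP, but ABCE1, ABCF1, ABCF2 and ABCF3 are not membrane transporters. Of 43 listed relatives 32 were measured and 21 reached the floor. On FOXQ1 4 were higher and 7 lower, on SNAI1 2 and 6, on TWIST1 3 and 4, and on ZEB2 1 and 6. Of protein-coding genes 11.1% were higher and 10.2% lower on FOXQ1, 5.98% and 13.2% on SNAI1, 12.5% and 5.39% on TWIST1, and 10.3% and 6.3% on ZEB2. NIPAL1, a magnesium transporter, was at 9.2 on LACZ and 4.93 to 6.09 on the factor arrays, and MCOLN3, a lysosomal cation channel, at 8.46 and 3.25 to 4.31. SLCO2A1, a prostaglandin transporter, was at 5.16 on LACZ, 7.73 with FOXQ1, 7.22 with SNAI1, 7.5 with TWIST1 and 4.99 with ZEB2, with calls on the arrays where SLC16A4 was also called. Of 20 measured ABC family genes 2 were lower on all 4 factor arrays, beside 2.29% of all named genes and 3.61% of protein-coding genes. They were the lipid transporter ABCA12, at 8.4 on LACZ and 3.38 to 3.99 elsewhere, and the drug exporter ABCG2, at 5.52 and 3.35 to 3.8. Of the sodium pump subunits 2 were measured, and ATP1B1, a beta subunit, differed by -1.34 on FOXQ1 and -1.39 on SNAI1 and by -0.57 and -0.42 on TWIST1 and ZEB2.

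Neighbouring genes were taken within 2 Mb of a member and with a mean level at or above the floor. Around the lower genes SLC2A9 and SLC44A3, 19 and 23 neighbours had medians between 0 and 0.17 and between -0.56 and -0.23. The higher genes SLC7A2, SLC39A14 and SLC25A37 lie on the short arm of chromosome 8, and the last 2 share neighbours. The 23 neighbours of SLC39A14 differed by a median of 0.38, 0.45, 0.76 and 0.7, in the order FOXQ1, SNAI1, TWIST1, ZEB2, and the 12 of SLC7A2 by 0.18, -0.01, 0.36 and 1.08. Most of these neighbour medians also lay above 0, and the part of this in the 3 results was not tested.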

How the data were processed

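RNA from 5 HMLE lines was hybridised to Affymetrix arrays, 1 per line, and samples were grouped by their titles. The authors deposited 1 table of values of 65521 probe sets (range 1.99 to 19.73). The deposited values were taken to be log2, since their range is that of a log scale, but the base is not stated. Array medians over all probe sets were 4 to 4.05. They lie below the floor, so they do not show whether brighter genes share a scale. The normalization method is not given in the sources used here. Per the submitters' processing notes the Transcriptome Analysis Console and hg38 were used. A platform annotation gave 16126 probe sets 1 symbol, and 15764 were found in RefSeq (GRCh38.p14). Of these, 194 on another chromosome than their identifier were left out, none an SLC gene. Where a gene had several probe sets (6 members), the brightest by mean was kept. Members needed a symbol of SLC plus a number and no pseudogene biotype in RefSeq, so 45 SLC symbols were left out.

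Calls needed a log2 difference of 1 and a floor of 4.72. There is no p-value, and the number of arrays limits the precision. Members, lists and classes were chosen with earlier results of these data known. Named genes were all with LACZ apart from every factor array, up to 8 per array and direction by size, up to 4 per array standing apart, up to 4 per class, and the 6 steadiest at high level. Those outside this rule (SLC36A1, SLC39A1, SLC25A12, SLC25A13, SLC25A20, SLC25A38, SLC25A40, SLC25A46, SLC27A3, SLC33A1, SLC33A2, SLC35B4, SLC35D1, SLC35F3, SLC60A2 and SLC71A2) and the neighbour windows were chosen after their values were seen. Only the rule for LACZ apart from every factor array was tried on simulated data, with an assumed noise. The other calls were not tried, and without replicates the error of calls in these data is unknown. Alternatives were quantile, median and loess (span 0.3) scaling, other floors, 3-fold and 1.5-fold thresholds, the median of probe sets, and leaving out arrays. Scripts ran in Python 3.11.15 with pandas 2.3.3, numpy 2.4.6, matplotlib 3.10.9 and, for loess, statsmodels 0.14.6. SLC37A3, SLC66A3 and SLC6A9 met the rule by class and were not called on any array.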

Additional observations from a re-analysis of the deposited data

Results flagged for a closer look

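Members called in opposite directions on different factor arrays were picked out. SLC22A5 differed by 2.03 on ZEB2 and by -2 on SNAI1, and SLC29A1 by 1.01 on ZEB2 and by -2.07 on FOXQ1. The difference between these effects was not tested, since each line had 1 array. The ZEB2 call of SLC29A1 was lost with quantile (0.91) and loess (0.93) scaling.

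Among 47 SLC probe sets outside the members (antisense transcripts, pseudogenes and probe sets with several symbols), 5 were higher than LACZ on at least 1 factor array and 5 lower, with SLC7A11-AS1 counted in both, beside 23.3% of all named genes called on at least 1 array. SLC35E2A was 2.86 higher on FOXQ1, SLC66A1LP, a pseudogene, 2.94 on ZEB2, SLC8A1-AS1 1.96 on ZEB2, the probe set of SLC26A6 and MIR6824 1.37 on FOXQ1 and SLC7A11-AS1 1.06 on SNAI1. SLC7A11-AS1 was also called lower on TWIST1, at -1.55.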

How the results depend on the processing

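No paired analysis was possible because each group has 1 array, and no replicate could be left out. SLC7A2 and the 6 lower genes kept their place under quantile, median and loess scaling. They also kept it without a floor and with any factor array left out. Those last settings only loosen the rule, so no gene could be lost by them. Members with LACZ below the factor arrays were 2 after each scaling (SLC17A5 joined), 6 at 1.5-fold, 4 without the FOXQ1 array, 4 without SNAI1 and 2 without ZEB2. Members with LACZ above the factor arrays were 3 with the floor at percentile 75 (SLC25A33, SLC2A9 and SLC39A4) and 13 at 1.5-fold. At 3-fold they were 4, without SLC39A4 and SLC25A27. With the median of probe sets they were 7, as SLC39A8 joined.

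After each of the 3 scalings ZEB2 stood apart upward in 1 member, and after median centring FOXQ1 in 1. With the floor at percentile 75, lower members were 15 on SNAI1, 6 on TWIST1 and 5 on ZEB2, FOXQ1 stood apart upward in 1 and SNAI1 downward in 3, and FOXQ1 and TWIST1 differed in 13. At 3-fold, members above LACZ were 3 for SNAI1, 9 for TWIST1 and 9 for ZEB2, and those below it 12, 6 and 5. FOXQ1 then stood apart upward in 1 and downward in 3, SNAI1 downward in 2 and ZEB2 in 0. Pairs differed in 10 (FOXQ1 and SNAI1), 8 (FOXQ1 and TWIST1), 14 (FOXQ1 and ZEB2), 7 (SNAI1 and TWIST1), 6 (SNAI1 and ZEB2) and 2 (TWIST1 and ZEB2). At 1.5-fold, higher members were 19 on FOXQ1, 11 on SNAI1 and 24 on ZEB2, and lower ones 38 on SNAI1 and 21 on ZEB2. FOXQ1 stood apart upward in 4 and downward in 11, SNAI1 downward in 10, TWIST1 upward in 4 and downward in 1, and ZEB2 upward in 6. The pairs then differed in 47, 39, 44, 40, 36 and 28, in the order above. Thresholds change counts by construction.

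Among the named values recomputed, 691 kept their call, 76 fell short of it and 1 changed sign: with the median of its probe sets SLC38A9 differed by 0.14 on FOXQ1. The 691 include 96 values at 1.5-fold and 96 without a floor, where a call could not be lost. Signal over background was judged only by the floor.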

Other observations

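Antisense partners of 2 members lay on the same side of LACZ as the gene they are named for. Those of SLC9A9, SLC26A4 and SLC60A1 stayed below the floor and did not all follow their gene. On ZEB2 SLC9A9-AS1 differed by 0.79 and SLC9A9 by -0.92. SLC44A3-AS1 was at 6.5 on LACZ and at 4.38 to 4.5 on the factor arrays, all below the floor, beside the lower SLC44A3. SLC8A1-AS1 was at 5.78 on LACZ and at 6.41 with FOXQ1, 7.33 with SNAI1, 7.01 with TWIST1 and 7.74 with ZEB2, with calls on SNAI1, TWIST1 and ZEB2, the arrays on which SLC8A1 was called. The sources used here do not say whether the probes separate the strands.

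The carriers of iron and heme synthesis in mitochondria, SLC25A37 and SLC25A38, lay above LACZ on all 4 factor arrays, by 0.75 to 2.84 and by 0.43 to 1.29. FLVCR1, a heme and choline transporter, was lower on FOXQ1, at -1.54, and ABCB6, a porphyrin transporter, was at 3.79 on LACZ and 7.02 on FOXQ1, and at 4.19 to 4.71 on the other 3 arrays.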
